A study of Homo sapiens with 6 samples.

Results

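Ubiquitin-specific proteases (USPs) are the largest family of deubiquitinases, the enzymes that take ubiquitin off other proteins and so reverse the work of ubiquitin ligases. They were chosen here by name: every row of the expression table whose symbol is USP, a number and at most 1 letter, leaving out USP18, whose substrate is the ubiquitin-like protein ISG15. The rule found 47 of 23002 genes, and 41 of them had a mean of at least 0.5 FPKM (fragments scaled to gene length and to sequencing depth) over the samples and were tested.

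Total RNA of U251, an established human glioblastoma line, was sequenced in 3 samples with a short hairpin RNA as negative control (sh-NC) and 3 with a short hairpin RNA against TRAF2 (sh-TRAF2). Both kinds of hairpin were delivered by lentivirus and the cells were kept as stable lines, so both groups carry a vector, and the labels name no further treatment. The hairpin that was sequenced, of those listed in the study's methods, is not named in the sources used here. The samples are numbered replicates of 1 line, and nothing says that they came from separate infections, so p-values measure only the spread between these samples.

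A USP recognises ubiquitin through a shared catalytic fold, in which a cysteine cuts the bond between ubiquitin and its substrate, while regions outside that fold set where the enzyme works. Some USPs edit chains at the proteasome and thereby delay or permit degradation, some strip ubiquitin from histones, and others act on receptors at endosomes or on adaptors of TNF signalling. TRAF2 is one such adaptor: with partner ligases it helps to build ubiquitin chains at the TNF receptor, which deubiquitinases take apart.

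The knockdown was visible in its target. TRAF2 went from 16.3 ± 1.84 FPKM in sh-NC to 3.27 ± 0.054 FPKM in sh-TRAF2 (SD, n = 3), a log2 fold change of -2.27 (SE 0.079). Recovered reads on genes ranged from 33999558 to 36823562 per sample. Of the glial markers, VIM, NES and GFAP were higher in sh-TRAF2, CD44 was not called (log2 fold change -0.07) and S100B was at 0 in every sh-NC sample. NES went from 5.35 ± 0.528 to 11.7 ± 0.227 FPKM and GFAP from 0.467 ± 0.176 to 1.18 ± 0.552 FPKM (SD, n = 3), log2 fold changes of 1.12 and 1.11, and the groups of GFAP overlapped. The summed level of the 5 glial markers in the table was 1401 to 1479 FPKM in sh-NC and 1748 to 1796 FPKM in sh-TRAF2, most of it VIM. Markers of blood, endothelial, epithelial, neuronal and myelinating cells summed to 0.213 to 0.397 FPKM in sh-NC and 0.518 to 0.712 FPKM in sh-TRAF2. Most of that sum was the neuronal gene SNAP25, at 0.297 ± 0.091 and 0.598 ± 0.108 FPKM (SD, n = 3). SNAP25 was not tested, and each of its sh-TRAF2 samples was above each sh-NC sample. The other markers of this list were near 0 in both groups, and EPCAM was at 0 in every sh-NC sample. Whether the shift in either marker list had a part in the results below was not tested. In bulk RNA, fewer cells of a type and less RNA per cell cannot be told apart.

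Of the 41 tested USPs, 11 were higher and 10 lower in sh-TRAF2, and 20 were not called (limma, Benjamini-Hochberg adjusted p under 0.05 over 11870 genes). Over all tested genes, 23.7% were called higher and 20.9% lower, 44.6% in either direction, so a large share of the transcriptome differed between the groups. The 21 called USPs make 51.2% of those tested, which is near that background. The median log2 fold change of the 41 tested USPs was -0.01, beside 0.02 for all tested genes. Groups did not overlap for 29 tested USPs, 16 higher and 13 lower, beside 55.5% of all tested genes (29% higher and 26.5% lower). Every called USP was among the 29. With 3 samples against 3 the two-sided exact permutation p of any single gene cannot go below 0.1. One USP, USP3, passed both an adjusted p under 0.05 and an absolute log2 fold change above 1, which 1.72% of all tested genes passed (0.986% higher and 0.733% lower).

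**Figure D1:**
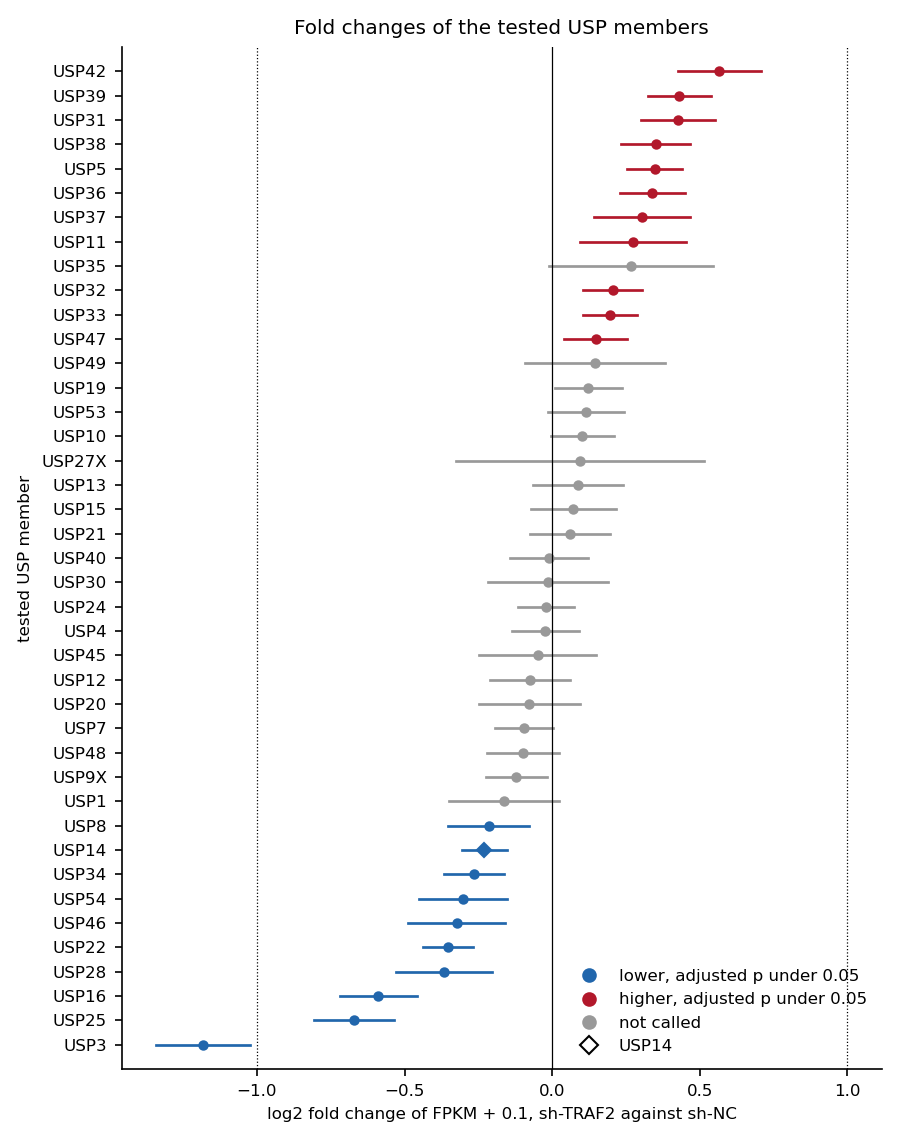
Log2 fold change of FPKM + 0.1 (horizontal axis, sh-TRAF2 against sh-NC) for each of the 41 tested USPs (vertical axis), with points for the estimate, lines for its 95% confidence interval from limma and dotted lines at -1 and 1. The 10 lower USPs reach from USP3 at -1.18 to USP8 at -0.21, the 11 higher ones from USP47 at 0.15 to USP42 at 0.57, and USP14, the diamond, lies among the smaller falls.

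The paper's discussion names USP14, from cited work, among enzymes that regulate the stability of fatty acid synthase (FASN). It describes no experiment on USP14. USP14 is a deubiquitinase that docks on the proteasome and trims chains from proteins arriving there. Its gene lies on the plus strand at chr18:158383-214629 (GRCh38, GENCODE release 29). Its level was 49.2, 50.2 and 50.3 FPKM in the sh-NC samples and 42.3, 43.0 and 42.3 FPKM in the sh-TRAF2 samples. The lowest sh-NC sample was above the highest sh-TRAF2 sample, and the spread inside each group was small beside the gap. The mean fell by 14.8%, from 49.9 ± 0.579 to 42.5 ± 0.396 FPKM (SD, n = 3). On the log2 scale its fold change was -0.23 (SE 0.033, 95% confidence interval -0.31 to -0.15, limma adjusted p = 0.000868).

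Against the other 40 tested USPs, USP14 stood high in both groups and stepped down in sh-TRAF2. Its log2 level minus their median was 2.62 to 2.65 in the sh-NC samples and 2.33 to 2.42 in the sh-TRAF2 samples, a difference in means of -0.25. The median of the others moved by 0.02 on the same scale, so the step was in the level of USP14 itself. In share of the summed FPKM of all 47 USPs, USP14 made up 8.55% to 8.73% in sh-NC and 7.49% to 7.56% in sh-TRAF2. The sum itself was 575.9 ± 0.257 FPKM in sh-NC and 565.2 ± 3.00 FPKM in sh-TRAF2 (SD, n = 3). No test was made of USP14 against the rest, because the members share their samples and are not replicates. In size, 8 members fell by more than USP14 among the 10 called lower.

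Levels per length were uneven across the family. USP22, the deubiquitinase of the SAGA coactivator complex, had the highest mean FPKM, followed by USP14, USP36, USP1 and USP39. USP22 read 74.3, 78.6 and 78.1 FPKM in sh-NC and 59.0, 61.4 and 60.3 FPKM in sh-TRAF2. All 3 sh-NC samples were above all 3 sh-TRAF2 samples, and the mean fell by 21.8%. USP36, a nucleolar enzyme that keeps ribosome assembly factors stable, read 37.1, 37.4 and 33.7 FPKM in sh-NC and 45.6, 46.7 and 44.6 FPKM in sh-TRAF2. It went the other way without overlap, by 0.34 on the log2 scale (SE 0.048). USP1, which clears ubiquitin from the DNA repair proteins FANCD2 and PCNA, was not called. Its sh-NC samples read 39.9, 33.3 and 38.9 FPKM and its sh-TRAF2 samples 35.5, 30.3 and 34.3 FPKM, so the groups overlapped. Its log2 fold change of -0.16 (SE 0.081, limma adjusted p = 0.139) was called at 0.0256 without sh-NC replicate 2, the lowest of the sh-NC samples. USP39, a splicing factor, is described with the members that lack an active site.

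**Figure D2:**
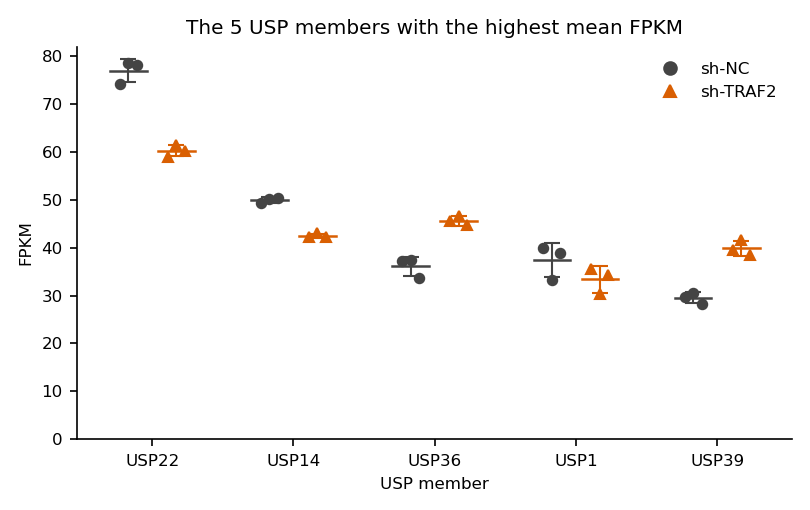
FPKM (vertical axis, from 0) of the 5 USPs with the highest mean level, with each of 3 samples per group as a point, horizontal lines for group means and error bars for SD. USP22 and USP14 sit lower in all sh-TRAF2 samples, USP36 and USP39 higher, and the groups of USP1 overlap.

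At the low end, 6 USPs had a mean under 0.5 FPKM and were not tested: USP2, USP6, USP26, USP43, USP44 and USP50. USP43 gave 10 to 19 recovered reads per sample, and the others gave 0 to 7. USP26 and USP44 had reads in 1 sample each, where the recovered number is only the least possible. A difference between groups was not detectable in these genes at this depth.

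The enzymes of the proteasome and of free ubiquitin chains split: of 3 tested, USP14 was lower, USP5 was higher and USP13 was not called. A group of 3 is too small to set against the 44.6% of all tested genes called. USP5 breaks down unanchored chains into single ubiquitins. It read 14.8, 14.4 and 15.0 FPKM in sh-NC and 18.8, 18.7 and 18.9 FPKM in sh-TRAF2, with no overlap and a log2 fold change of 0.35 (SE 0.041, limma adjusted p = 0.000294). USP13, its nearest relative, had a log2 fold change of 0.09 (95% confidence interval -0.06 to 0.24).

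Of 7 tested histone and chromatin enzymes, 3 were lower (USP3, USP16 and USP22), 2 were higher (USP42 and USP36), and USP27X and USP49 were not called. These counts are too small to set against the 44.6% of all tested genes called. USP3, which removes ubiquitin from histones at DNA breaks, read 7.78, 8.68 and 8.50 FPKM in sh-NC. In sh-TRAF2 it read 3.84, 3.41 and 3.59 FPKM. Its highest knockdown sample was below its lowest control sample, and the mean fell by 56.6% (log2 fold change -1.18, SE 0.070, limma adjusted p = 1.09e-05). USP3 shares 1760 exon bases with USP3-AS1 on the opposite strand, and whether the counting used strand is not stated, so part of its reads may belong to that gene.

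USP16, which takes ubiquitin off histones before mitosis, read 12.7, 11.7 and 13.1 FPKM in sh-NC and 8.17, 8.05 and 8.58 FPKM in sh-TRAF2. The groups were apart and the log2 fold change was -0.59 (SE 0.057, limma adjusted p = 0.000122). USP22 followed at -0.35 (SE 0.037, limma adjusted p = 0.000171). Among cofactors of these enzymes, ATXN7L3, an adaptor that USP22 needs for its activity, was lower too, from 16.8 ± 0.512 to 13.4 ± 0.274 FPKM (SD, n = 3; log2 fold change -0.32). Its partner ENY2 stood at 22.3 ± 0.823 and 22.4 ± 1.03 FPKM and was not called.

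USP42, a nuclear enzyme known to act on p53 and on histones, had the largest rise. It read 3.12, 3.01 and 3.13 FPKM in sh-NC and 4.53, 4.56 and 4.77 FPKM in sh-TRAF2, a log2 fold change of 0.57 (SE 0.062, limma adjusted p = 0.000206). Each sh-TRAF2 sample was above each sh-NC sample. Beyond 0.5 on the log2 scale, 1 called USP was higher (USP42) and 3 were lower (USP3, USP25 and USP16), beside 5.92% and 5.43% of all tested genes.

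**Figure D3:**
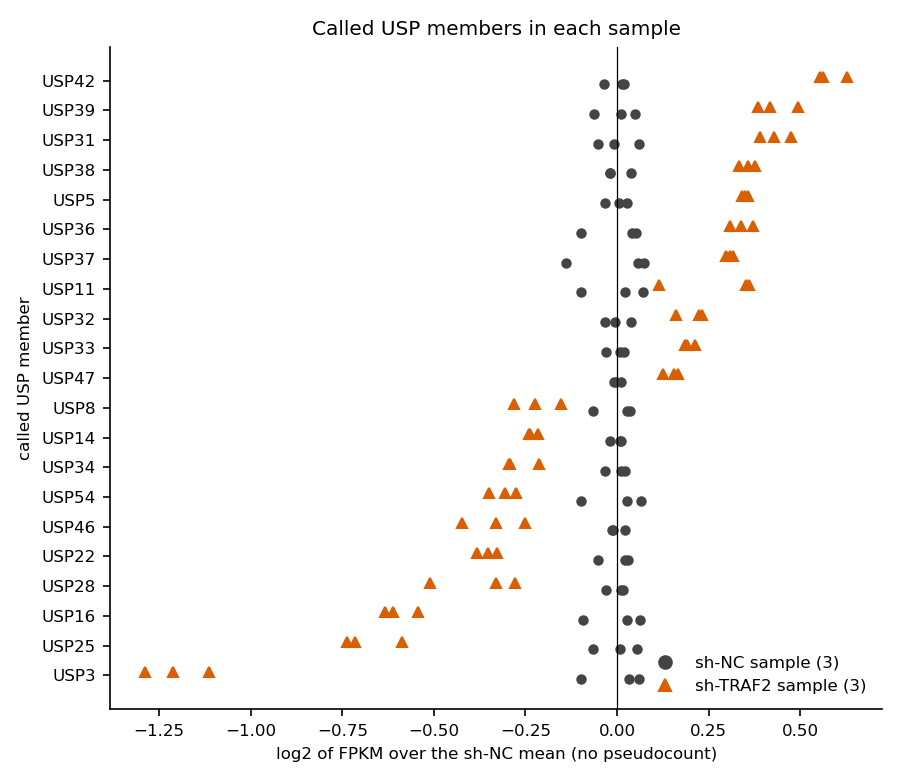
The 21 called USPs (vertical axis) in each sample, as log2 of FPKM over the mean of the sh-NC samples (horizontal axis), with circles for 3 sh-NC and triangles for 3 sh-TRAF2 samples. For every called USP the triangles lie on 1 side of the circles, farthest for USP3 and closest for USP11, whose lowest sh-TRAF2 sample is near its highest sh-NC sample.

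The DNA repair, p53 and cell cycle group held 9 tested members, of which 3 were higher, 1 was lower and 5 were not called. That is too few members to compare with the 44.6% of all tested genes called. USP28, which stabilises MYC and works with the DNA damage response, read 6.44, 6.47 and 6.26 FPKM in sh-NC and 4.48, 5.08 and 5.27 FPKM in sh-TRAF2. The groups were apart, with a log2 fold change of -0.37 (SE 0.071, limma adjusted p = 0.00361). USP37, which stabilises cyclin A, was higher by 0.31 on the log2 scale (SE 0.071, limma adjusted p = 0.0087). It shares 3045 exon bases with VIL1 on the opposite strand, whose reads may be mixed with its own.

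USP11, which has the repair protein BRCA2 among its partners, read 7.88, 7.26 and 8.15 FPKM in sh-NC and 8.41, 9.90 and 9.96 FPKM in sh-TRAF2, a log2 fold change of 0.27 (SE 0.079, limma adjusted p = 0.0218). Its first sh-TRAF2 sample lay close to the sh-NC range. Without sh-NC replicate 2, sh-TRAF2 replicate 2 or sh-TRAF2 replicate 3 the adjusted p was 0.0619, 0.0743 and 0.076, and the call was lost. USP47, chosen after its values were seen, was higher by 0.15 (SE 0.047, limma adjusted p = 0.033), and its call was lost without any 1 of the 6 samples. Not called in this group were USP1, USP7, USP10, USP24 and USP45. USP7, the deubiquitinase of MDM2 and p53, and USP10, which acts on cytoplasmic p53, were looked at after their values were seen. USP7 was at 25.0 ± 0.971 and 23.4 ± 0.282 FPKM, and USP10 at 29.5 ± 1.53 and 31.7 ± 0.499 FPKM (SD, n = 3). USP7 was called lower with quantile normalization, and USP10 higher without sh-NC replicate 2.

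In the group tied to TNF, NF-κB and innate signalling, 2 of 7 tested were higher, 1 was lower and 4 were not called. With so few members, the share called cannot be set against the 44.6% of all tested genes. USP25, which acts on TRAF adaptors downstream of cytokine and innate receptors, read 12.4, 11.7 and 12.8 FPKM in sh-NC. In sh-TRAF2 it read 7.37, 7.48 and 8.18 FPKM, well apart from the controls. Its mean fell by 37.5% (log2 fold change -0.67, SE 0.059, limma adjusted p = 7.5e-05), the second largest fall of the family. USP31, linked to NF-κB, read 6.33, 6.84 and 6.53 FPKM in sh-NC and 8.83, 9.13 and 8.60 FPKM in sh-TRAF2. It was higher without overlap, by 0.43 on the log2 scale (SE 0.054), and it shares 2768 exon bases with AC127459.1 on the same strand. USP38 was higher by 0.35 (SE 0.051, limma adjusted p = 0.000878), from 5.79 ± 0.133 to 7.41 ± 0.111 FPKM (SD, n = 3). USP4, USP20, USP21 and USP48 had log2 fold changes between -0.10 and 0.06 and were not called.

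Of 3 tested members tied to TGF-β and Wnt signalling, only USP34 was called, a count too small to set against the 44.6% of all tested genes. USP34, which acts on the Wnt scaffold axin, went from 19.0 ± 0.375 to 15.8 ± 0.517 FPKM (SD, n = 3; log2 fold change -0.26, SE 0.044, limma adjusted p = 0.00178). It shares 3263 exon bases with AHSA2P on the opposite strand. USP9X, a large enzyme with SMAD4 among its substrates, read 21.5, 20.4 and 21.6 FPKM in sh-NC and 18.9, 20.1 and 19.3 FPKM in sh-TRAF2. Its groups were apart by a narrow margin, and its log2 fold change of -0.12 (SE 0.045) gave a limma adjusted p of 0.0576. That value came under 0.05 in 4 of the alternatives tried, at 0.0268 with limma-voom on recovered reads, 0.0418 with quantile normalization, 0.0402 with rescaling to a common total and 0.0382 without sh-NC replicate 2. USP15 was at 3.71 ± 0.153 and 3.91 ± 0.0355 FPKM (SD, n = 3) and was not called.

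Of 5 tested receptor trafficking and membrane enzymes, 2 were higher, 2 lower and 1 not called, a count too small to set against the 44.6% of all tested genes called. USP46, which forms a complex with WDR48 and acts on glutamate receptors and an AKT phosphatase, went from 3.57 ± 0.0487 to 2.84 ± 0.169 FPKM (SD, n = 3; log2 fold change -0.32, SE 0.071). USP8, the endosomal enzyme that acts on the EGF receptor, was chosen after its values were seen. It read 6.57, 6.13 and 6.53 FPKM in sh-NC and 5.76, 5.28 and 5.49 FPKM in sh-TRAF2 (log2 fold change -0.21, SE 0.060, limma adjusted p = 0.0195). Its groups did not overlap, but the call was lost without sh-NC replicate 1 or 3 and without sh-TRAF2 replicate 2 or 3. USP33, which recycles receptors to the cell surface, was higher by 0.20 (SE 0.040), and USP32, a membrane-bound enzyme of the endosomal route, by 0.21 (SE 0.043). USP12, the relative of USP46, had a log2 fold change of -0.07 and overlapping groups.

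Neither organelle-anchored member was called. USP19, held in the endoplasmic reticulum membrane, read 13.2, 13.1 and 13.1 FPKM in sh-NC and 13.5, 14.8 and 14.7 FPKM in sh-TRAF2 (log2 fold change 0.12, limma adjusted p = 0.0741). The groups were apart, and without sh-TRAF2 replicate 1 the adjusted p was 0.0281. USP30, which opposes mitophagy at the mitochondrial outer membrane, stood at 2.14 ± 0.0379 and 2.12 ± 0.176 FPKM (SD, n = 3).

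The last lists hold members long classed as having no catalytic activity, and members little described. USP39 belongs to the spliceosome and lacks the active-site residues. It read 29.7, 30.6 and 28.3 FPKM in sh-NC and 39.4, 41.6 and 38.6 FPKM in sh-TRAF2, without overlap (log2 fold change 0.43, SE 0.047, limma adjusted p = 0.000199). USP54 was lower, from 5.23 ± 0.305 to 4.22 ± 0.107 FPKM (SD, n = 3; log2 fold change -0.30), and shares 1528 exon bases with PPP3CB-AS1 on the opposite strand. USP53, a protein of cell junctions, had a log2 fold change of 0.12 (95% confidence interval -0.01 to 0.24) and was not called. Of the little described members, USP40 was at 7.42 ± 0.253 and 7.38 ± 0.364 FPKM. USP35 was at 1.14 ± 0.0996 and 1.39 ± 0.131 FPKM (SD, n = 3; log2 fold change 0.27, SE 0.122, limma adjusted p = 0.107), so its fold change came with a wider error than that of USP11.

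Related USPs were also compared with each other within samples. In each sample, the log2 ratio of FPKM + 0.1 was taken within 12 pairs of related USPs. In 9 pairs the ratios of the groups did not overlap. Other pairs of genes were not compared, so the 9 cannot be read as a trait of related USPs. Of single tested genes, 55.5% had groups that did not overlap, a share that is no background for ratios between genes. The two-sided exact permutation p was 0.1 in each of the 9 pairs, the smallest 3 samples against 3 can give, and 0.133 after Benjamini-Hochberg adjustment over the 12, so none passed the correction. USP16 over USP45 shifted most, from 2.66 ± 0.0931 to 2.12 ± 0.0415 (SD, n = 3), lower in 3 of 3 sh-TRAF2 samples. USP22 over USP27X went from 6.19 ± 0.234 to 5.74 ± 0.263, a wide spread, and USP27X was near 1 FPKM. The source of that spread was not tested.

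The pair of USP53 over USP54 went the other way, from 1.07 ± 0.1 to 1.49 ± 0.0606, and USP5 over USP13 from 1.03 ± 0.0812 to 1.29 ± 0.0985. USP25 and USP28 fell together but unequally, with a ratio of 0.93 ± 0.0829 in sh-NC and 0.63 ± 0.0776 in sh-TRAF2. USP12 over USP46, USP20 over USP33, USP36 over USP42 and USP4 over USP11 were also apart. Overlapping ratios were found for USP35 over USP38, USP4 over USP15 and USP11 over USP15.

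**Figure D4:**
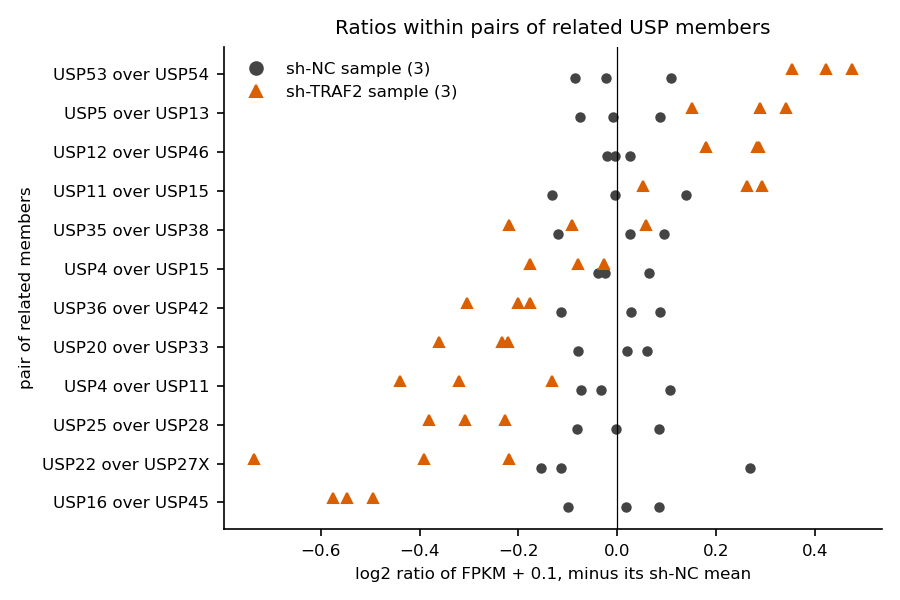
Log2 ratio of FPKM + 0.1 within each of 12 pairs of related USPs, minus the mean ratio of the sh-NC samples (horizontal axis), with circles for 3 sh-NC and triangles for 3 sh-TRAF2 samples. Triangles and circles are apart in 9 pairs, with USP16 over USP45 shifted farthest down and USP53 over USP54 farthest up.

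A short stretch of the TRAF2 hairpin target recurs in 10 tested USPs, and the sites of the 6 that were lower are printed. Sites in USP37, which was higher, and in USP7, USP40 and USP53, which were not called, are not printed. The stretch is shown because transcripts that hold it were lower across the transcriptome in an earlier look at these same fold changes, so the counts given here are a description and not independent of them. In capitals are bases 10 to 16 of the sh-TRAF2#1 target, and the same 7 letters in the sites below, read on the strand of the transcript from GENCODE release 29.
sh-TRAF2#1 target: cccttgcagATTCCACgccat
TRAF2 site: cccttgcagATTCCACgccatcggc
USP14 site: tcttccagtATTCCACctattattc
USP16 site: cacggtgatATTCCACaagattttg
USP22 site: gtcccccttATTCCACtgtggcatt
USP25 site: taccttcatATTCCACgcatgaact
USP34 site: ttaacatagATTCCACgtggcaaga
USP54 site: accctctgcATTCCACaggcaaggt

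The USP22 site lies in the 3′UTR, on the minus strand at chr17:21000419-21000443 (GRCh38). Those of USP14 (chr18:196672-196696, plus strand), USP25 (chr21:15878390-15878414, plus strand), USP34 (chr2:61405973-61405997, minus strand) and USP54 (chr10:73517507-73517531, minus strand) lie in coding sequence, and that of USP16 crosses an exon junction in coding sequence. The USP25 site shares 9 bases in a row with the target and the USP34 site 10. A site in USP7, which was not called, also shares 9.

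Searched on the transcript strand only, ATTCCAC was found in the 3′UTR of 1 of 41 tested USPs (2.44%), beside 10.6% of 10822 tested genes with a known 3′UTR. Anywhere in the transcript it was found in 10 of 41 (24.4%), beside 18.5% of those genes. Of these 10 USPs, 6 were lower (the members shown), 1 was higher (USP37) and 3 were not called (USP7, USP40 and USP53), with a median log2 fold change of -0.25. Of the 31 without it, 4 were lower, 10 higher and 17 not called, with a median of 0.09. Over all tested genes with a known 3′UTR, 34.2% of holders were lower and 15.1% higher, beside 19.2% and 25.9% of the rest. Among untested members USP6 and USP26 hold it as well. USP3, with the largest fall, holds no copy in the transcript searched. Holders of the stretch were not matched to the rest for transcript length or base content. Which hairpin was sequenced is not named in the sources used here, and the part of this stretch in any fall was not tested.

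By position, USP16 and USP25 are both on chromosome 21, whose 112 tested genes had a median log2 fold change of -0.02, with 22.3% lower and 15.2% higher. The tested neighbours of USP16, up to 10 on each side, had a median of 0.10, those of USP25 0.01 and those of USP3 -0.06. The log2 fold changes of USP16, USP25 and USP3 themselves were -0.59, -0.67 and -1.18. Whether position had a part in any fall was not tested.

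Of 10 cofactors that work with the USPs, 3 were higher, 1 was lower (ATXN7L3) and 6 were not called, a called share of 40% beside 44.6% of all tested genes. GMPS, a partner of USP7, went from 6.30 ± 0.395 to 8.33 ± 0.109 FPKM (SD, n = 3; log2 fold change 0.40), and WDR48, which activates USP1, USP12 and USP46, was higher by 0.20. PSMD2, of the proteasome's regulatory particle, to which USP14 binds, was higher by 0.18. Of the USP-fold genes without a USP number, CYLD, which cuts the chains of TNF signalling, was at 26.7 ± 0.84 and 28.0 ± 1.89 FPKM and was not called. PAN2 was not called at -0.26, which was -0.13 without sh-TRAF2 replicate 1. USPL1 was higher by 0.24 (limma adjusted p = 0.0254), a call lost without sh-NC replicate 1 or 2 or without sh-TRAF2 replicate 1 or 3.

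Of 31 tested deubiquitinases of other families, 7 were higher, 8 lower and 16 not called. The called share of 48.4% was near the 44.6% of all tested genes. Under quantile normalization the split was 6 higher and 12 lower. MINDY1, which cuts long chains, went from 1.35 ± 0.112 to 2.48 ± 0.09 FPKM and OTUD6B from 4.60 ± 0.493 to 8.29 ± 1.12 FPKM (SD, n = 3), log2 fold changes of 0.83 each. OTUD4 fell by 0.26 on the log2 scale. TNFAIP3, the feedback inhibitor of TNF signalling, was at 76.7 ± 4.99 and 70.5 ± 2.53 FPKM and was not called (limma adjusted p = 0.0955), though it was without sh-NC replicate 3 (0.0171) and with quantile normalization (0.0208).

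The other deubiquitinases of the proteasome did not follow USP14. UCHL5 was at 10.5 ± 0.228 and 10.4 ± 0.25 FPKM, with a log2 fold change of -0.01. PSMD14 was higher by 0.14, from 185.0 ± 3.07 to 203.5 ± 2.28 FPKM (SD, n = 3), a call lost with quantile normalization (limma adjusted p = 0.0898).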

How the data were processed

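RNA was sequenced in 3 sh-NC and 3 sh-TRAF2 samples of U251 cells, and the authors deposited FPKM values per gene. The submitters' processing notes name HISAT2, HTSeq, R 3.2.0 and DESeq2 without their roles; the genome build and whether strand was used are not given in the sources used here. FPKM corrects for depth and length but not for composition. Whole reads were recovered from the steps of the FPKM values for 100% of 23002 genes, of which 2643 had reads in 1 sample only. For these 2643 the recovered number is only the least possible, so the 100% does not speak for them. In a simulation of genes with reads in more than 1 sample, 98.7% of 1781 came out exactly.

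Genes with a mean of at least 0.5 FPKM (11870) were tested on log2(FPKM + 0.1) with limma 3.58.1 (lmFit, eBayes with trend) in R 4.3.3, with Benjamini-Hochberg adjustment over all of them. Fold changes on this scale understate those of low genes. In data simulated around these samples' means, 89.6% of 67 genes changed by 0.5 on the log2 scale were called. The spread in that simulation was a single assumed setting for all genes and not estimated from the samples, so the share depends on it. The smallest two-sided exact permutation p was 0.1. Gene positions, overlaps and transcripts came from GENCODE release 29 (GRCh38).

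The members and lists were chosen with earlier results of these data known. Named were TRAF2, USP14, members past both thresholds, the 6 largest rises and falls among called members, the 5 highest levels, the 2 smallest adjusted p in each role list, related members where at least 2 were tested, the 3 smallest adjusted p in each list of other genes, and CYLD, TNFAIP3, UCHL5 and PSMD14. Protein sequences were not used here. One list of other genes is not reported here. Alternatives were 2 other pseudocounts, 2 other filters, quantile normalization, rescaling each sample to 1 total (TPM), eBayes without trend, a replicate block, limma-voom on recovered reads and leaving out each sample.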

Additional observations from a re-analysis of the deposited data

How the results depend on the processing

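Under the 15 alternatives, the fold change of TRAF2 ranged from -2.33 to -2.01 and that of USP14 from -0.28 to -0.22 (limma adjusted p 0.000201 to 0.00577). USP14 minus the median of the other tested USPs ranged from -0.30 to -0.22. The number of called USPs ranged from 18 to 23, with 9 to 11 higher and 9 to 12 lower, and USP3 alone passed both thresholds in each alternative. Leaving out 1 sample at a time gave 18 to 22 called USPs. No called USP changed sign. For the single genes picked by the naming rule, 685 of 705 fits kept their side of the threshold, 10 lost a call and 10 gained one. That count leaves out USP7, USP8, USP10 and USP47, which were looked at after their values were seen. USP8 and USP47 lost their calls in several alternatives, and USP7 and USP10 gained one, as given above. Without a filter on low values USP11 lost its call (limma adjusted p = 0.0591), as did USPL1 (0.0588). Whether the replicate numbers pair the samples was not settled: deviations of same-numbered samples correlated at -0.08, 0.07 and 0.07. Samples numbered 2 and 3 correlated best with their own number, and those numbered 1 did not. Over all tested genes, 5451 were called with the replicate block and 5297 without it. With the replicate block, 10 USPs were higher and 11 lower, USP1 was gained (limma adjusted p = 0.0121), USP47 was lost, and USP14 stood at -0.23 (0.00264). The depth left 6 USPs untested, and the reads of genes that overlap others could not be assigned to either.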
